A study of Mus musculus with 27 samples.

Results

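Gene expression after 48 h of dosing with the Smo antagonist LDE225 was compared with that after 48 h of vehicle in medulloblastoma grafts. The comparison rested on 4 of the 21 expression arrays, chosen by their titles, with 2 LDE225 tumours and 2 vehicle tumours and 1 tumour on each array. It covered all 45037 probe sets that are not controls of the array maker, of 45101 in the table. The tumours carried the genotype Ptch+/-p53-/- in every group, vehicle included. Cells taken straight from medulloblastomas of that transgenic line had been injected under the skin of the right flank of nu/nu mice, and animals were assigned so that mean tumour volumes were alike. LDE225 was given once a day at 20 mg/kg/day. The same 2 arms had been sampled at 4 h (3 and 3 tumours) and at 16 h (3 and 3 tumours). Resistant tumours, collected on day 26, had received 20 mg/kg/day (2 tumours) or 160 mg/kg/day (3 tumours) of LDE225 in divided daily doses. A flank graft lacks the cerebellar surroundings of the tumour, and nude mice lack a normal set of T cells while keeping macrophages, vessels and connective tissue that can enter the graft. The age and sex of the hosts, and the number of donor tumours behind the grafts, are not given in the sources used here.

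Hedgehog signalling is held off by the receptor Ptch1, which keeps the membrane protein Smo inactive. When a Hedgehog ligand binds Ptch1, or when Ptch1 is lost, Smo drives the Gli transcription factors, and in the cerebellum this pathway makes granule neuron progenitors divide before they leave the cycle and mature into granule neurons. Loss of Ptch1 function keeps that programme on and gives rise to medulloblastoma, p53 loss removes a checkpoint that arrests or kills damaged cells, and LDE225 (sonidegib) binds Smo itself.

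No table linking probe sets to genes was used here. Probe sets are therefore given by identifier, levels of Hedgehog target genes and of markers of tumour or host cells could not be read, and the tumour label was not checked against markers. A probe set is a group of short probes on the array that together report 1 transcript or a few related ones, and a gene can have several.

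The 4 arrays of 48 h separated by treatment. Probe sets with a mean intensity of at least 200 over the 21 arrays numbered 9765, and 48 of them (0.492%) differed by 2-fold or more between the 2 LDE225 tumours. The 2 vehicle tumours, labelled mouse 1 and mouse 3, differed by that much at 259 (2.65%). Between an LDE225 and a vehicle tumour the share was 11.1% and 11.5% against vehicle tumour 1, and 16.9% and 18.6% against vehicle tumour 3. Thus each treated tumour differed from each vehicle tumour at more probe sets than tumours of 1 arm differed from each other, and vehicle tumour 3 lay farther from the treated tumours than vehicle tumour 1 did. Over all probe sets Pearson's r of log2 values was 0.9690 between the LDE225 tumours, 0.9625 between the vehicle tumours, and between 0.9098 and 0.9460 across the arms.

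Mean intensity was close on all arrays, at 229.7 and 224.3 in LDE225 tumours and 221.4 and 230.1 in vehicle tumours of 48 h, within a range of 221.4 to 256.4 over the 21 arrays. The 3′ to 5′ signal ratio of beta-actin, a measure of RNA integrity, was 1.26 and 1.33 in LDE225 tumours and 1.3 and 1.25 in vehicle tumours, at the low end of the 21 arrays (1.25 to 1.91). Resistant tumours had 1.27 to 1.4, and all arrays of 4 h and 16 h were higher, at 1.53 to 1.91. The dim end differed between the arms: the 25th percentile of intensity was 7.4 and 8.0 in LDE225 tumours and 5.7 and 4.7 in vehicle tumours. The part of this difference in the results was not tested beyond the rescalings given below.

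After 48 h of LDE225, 7009 of the 45037 probe sets (15.6%) had changed (limma on log2(intensity + 4), Benjamini-Hochberg adjusted p below 0.05), 3673 upward (8.16%) and 3336 downward (7.41%). Called rises had a median log2 change of 1.62, and called falls had a smaller one of -0.93. The called rises were also dimmer, with a median intensity of 69.9 over the 21 arrays against 330 for the falls. The part of signal level in these sizes was not tested. A change of 2-fold or more was seen at 4319 of the 7009 (9.59% of all tested), with 2874 higher and 1445 lower. At 4-fold or more there were 1404 (3.12%), with 1217 higher and 187 lower, and at 8-fold or more 311 (0.691%), with 275 higher and 36 lower. All 7009 had LDE225 values that did not overlap those of vehicle, a property that 33.4% of all probe sets had in the upward and 23.9% in the downward direction. Each arm had 2 tumours, and leaving out any 1 of the 4 arrays kept a single tumour in its arm. The count fell in each of these 4 fits, most without vehicle tumour 3 and least without vehicle tumour 1. Why it fell was not tested. The rises numbered 1185 and the falls 1321 once vehicle tumour 3 was left out. Omitting LDE225 tumour 1 gave 1981 rises and 2054 falls, and omitting LDE225 tumour 2 gave 1770 and 1941. Changes of 2-fold or more numbered 1871 in the absence of vehicle tumour 3 and 2752 in that of LDE225 tumour 2. A core of 2167 probe sets, 980 higher and 1187 lower, was called in the same direction in each of those 4 fits. With the spread estimated from the 4 arrays alone the count was 4593.

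**Figure D1:**
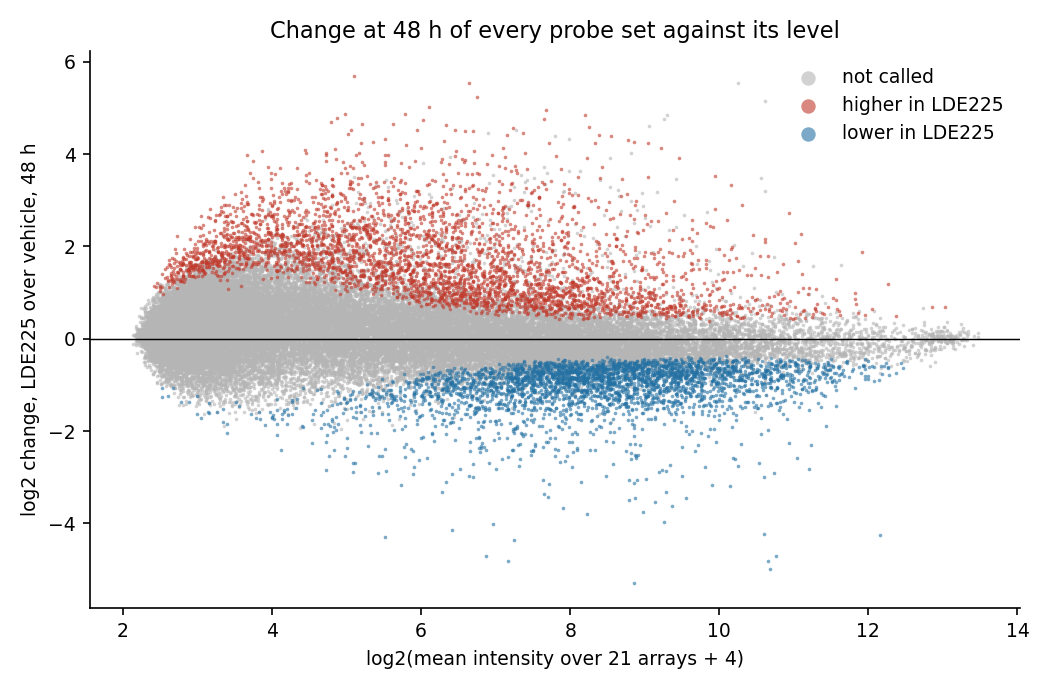
Each point is 1 of the 45037 probe sets. The x axis is log2 of its mean intensity over 21 arrays plus 4, the y axis its log2 change at 48 h, LDE225 over vehicle; red and blue points were called higher and lower in LDE225, grey points were not called. Red points reach 5.69 and are spread over dim and middle levels, while blue points reach -5.28 and lie mostly at middle and bright levels.

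Rises and falls differed in the signal of their probe sets, which depends on the probes as well as on the transcript and is no measure of abundance between genes. Probe sets called higher had a median intensity of 172 in LDE225 tumours and 52.6 in vehicle tumours, and those called lower had 181 in LDE225 tumours and 361 in vehicle tumours. Among probe sets with a mean intensity under 16, 3.79% were called higher and 0.235% lower. From 256 to under 1024 the shares were 9.51% higher and 24.5% lower, and from 1024 upward 6.02% higher and 22.6% lower. The median log2 change over all probe sets of a class, called or not, was 0.26 in the dimmest class and -0.21 from 256 to under 1024, so the shift with level was present across whole classes and not in called probe sets alone. At 16 h the medians of the 5 classes, dimmest first, were 0.02, 0.15, 0.14, 0.02 and -0.01, and at 4 h they were 0.08, 0.05, -0.02, -0.03 and 0.08. Counted as a share of the total signal of an array, the 3673 probe sets called higher made up 15.6% and 15.3% in LDE225 tumours and 7.2% and 5.37% in vehicle tumours. The 3336 called lower made up 10.8% and 10.5% in LDE225 tumours and 19.2% and 21.3% in vehicle tumours. In a bulk tumour, fewer cells of a type and less RNA per cell cannot be told apart.

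**Figure D2:**
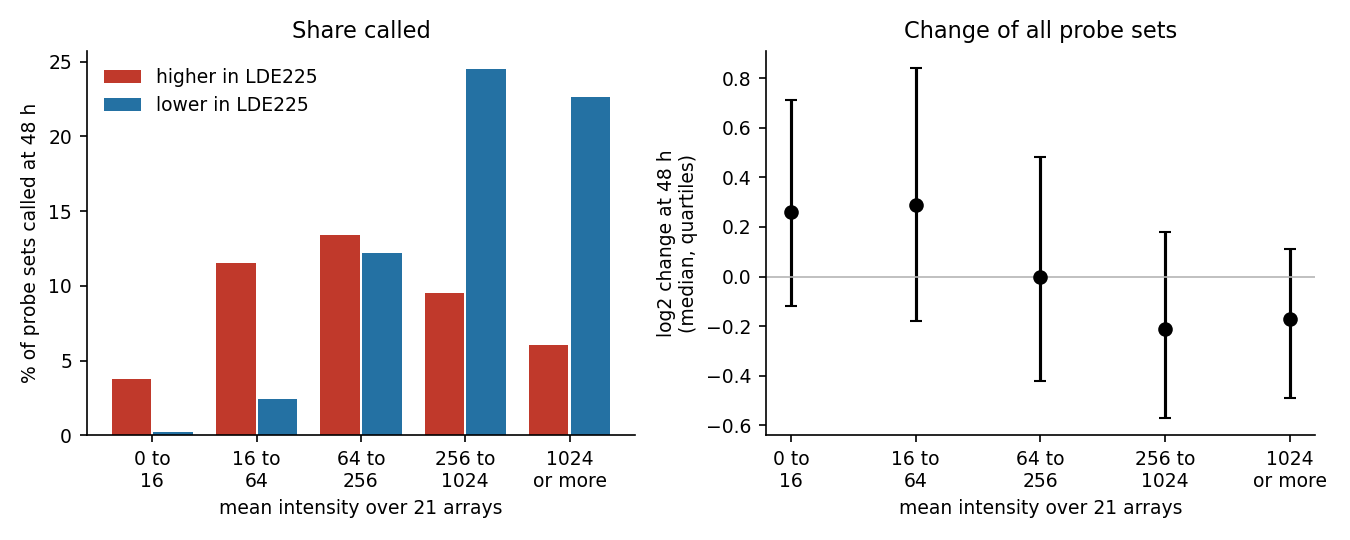
Left, the share of probe sets called higher (red) and lower (blue) in LDE225 at 48 h, in percent, by mean intensity over 21 arrays; right, the median log2 change of all probe sets in each class, with bars for the lower and upper quartile. Calls upward peak at 13.4% between 64 and 256, calls downward at 24.5% between 256 and 1024, and the median change is 0.26 at the dimmest class and -0.17 at the brightest.

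The balance of rises and falls depended on how arrays were scaled. Centring each array on its median shifted every change by -0.38 on the log2 scale, and then 1952 probe sets were called higher and 6797 lower. Quantile normalization, which shifts probe sets by different amounts (median shift -0.24), gave 3102 higher and 4324 lower. Centring on bright probe sets, chosen after seeing the data, shifted changes by 0.13 and gave 4764 higher and 2487 lower. A set of 1917 probe sets was called higher and 2487 lower under all 4 scalings, which is 52.2% of the rises and 74.6% of the falls given above.

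The largest rises were those of probe sets with far lower signal in every other group. The intensity of 1419411_at was 144.9 and 415.7 in LDE225 tumours at 48 h, against 1.1 and 0.6 in vehicle tumours. It lay between 0.3 and 14.9 in the other 17 tumours, those given LDE225 for 4 h or 16 h and the resistant ones among them, so the 2 treated tumours of 48 h stood alone. The log2 change at 48 h was 5.69 (standard error 0.61, limma, adjusted p = 4.8e-06). Both vehicle values lie under the offset of 4, which sets the size of this change: over the alternatives it ran between 2.29 and 7.07. At 16 h its log2 change was 0.57 (limma, adjusted p = 0.6) and at 4 h it was 0.13 (adjusted p = 1). The effect at 48 h exceeded that at 16 h by 5.12 (limma, adjusted p = 0.0018) and that at 4 h by 5.56 (adjusted p = 0.00024).

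The intensity of 1417416_at was 768.7 and 893.6 in LDE225 tumours at 48 h, against 14.9 and 13.2 in vehicle tumours. The groups did not overlap, and the highest of the other 17 tumours, a resistant one of 20 mg/kg/day, had 56.0. Its log2 change was 5.53 (standard error 0.54, limma, adjusted p = 1.9e-06), against 0.68 at 16 h (adjusted p = 0.43). It ran between 3.52, with an offset of 64, and 5.92 over the alternatives. In the 3 tumours given LDE225 for 16 h the signal was 36.4, 13.1 and 30.7, against 15.5, 7.9 and 21.2 in vehicle tumours of that time, and these values overlapped. The effect at 48 h exceeded that at 16 h by 4.85 (limma, adjusted p = 0.0011). Both probe sets were picked as the largest rises among 1671 candidates, which favours large values at 48 h. Candidates, rising or falling, also had to be called with a spread estimated over all 21 arrays. That favours even signal within the other groups, so their low values there are a description.

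The 2 largest falls, among 2388 candidates, took a different course and were already under way earlier. The intensity of 1436998_at was 19.1 and 14.3 in LDE225 tumours at 48 h, against 726.7 and 871.4 in vehicle tumours. At 16 h it was 172.6, 118.3 and 111.9 in LDE225 tumours and 513.0, 631.1 and 582.9 in vehicle tumours, and at 4 h it was 546.9, 509.0 and 435.6 against 844.5, 651.1 and 513.4. The arms did not overlap at 48 h or 16 h and overlapped at 4 h. The log2 change was -0.40 at 4 h (limma, adjusted p = 0.83), -2.09 at 16 h (adjusted p = 1.9e-06) and -5.28 at 48 h (standard error 0.25, adjusted p = 3.3e-10). The last of these ran between -5.67 and -3.41 over the alternatives, with -3.41 from an offset of 64. The effect at 48 h differed from that at 16 h by -3.19 (limma, adjusted p = 5.8e-05). In the 5 resistant tumours this probe set had 311.0 to 560.7, and set against the 6 earlier vehicle tumours its log2 difference was -0.41 (limma, adjusted p = 0.1).

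The intensity of 1427130_x_at was 114.8 and 94.5 in LDE225 tumours at 48 h, against 3055.9 and 3790.2 in vehicle tumours. It was 500.6, 155.3 and 173.7 in LDE225 tumours at 16 h, against 2297.8, 2850.1 and 2931.8 in vehicle tumours. The arms did not overlap at either time, and LDE225 tumours of 4 h, at 789.3 to 1072.1, also lay below their vehicle tumours, at 2801.7 to 3714.2. The log2 change was -1.76 at 4 h (limma, adjusted p = 0.38), -3.47 at 16 h (adjusted p = 4.2e-05) and -4.98 at 48 h (standard error 0.56, adjusted p = 7.5e-06), and that at 48 h ran between -5.36 and -4.36 over the alternatives. The step from 16 h to 48 h did not pass the test (difference of effects -1.51, limma, adjusted p = 0.3), whereas that from 4 h to 48 h did (-3.22, adjusted p = 0.0082), although not without vehicle tumour 3 of 48 h (-3.06, adjusted p = 0.056). The ending x_at marks probe sets whose probes can also bind other transcripts, so its signal may belong to more than 1 gene.

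**Figure D3:**
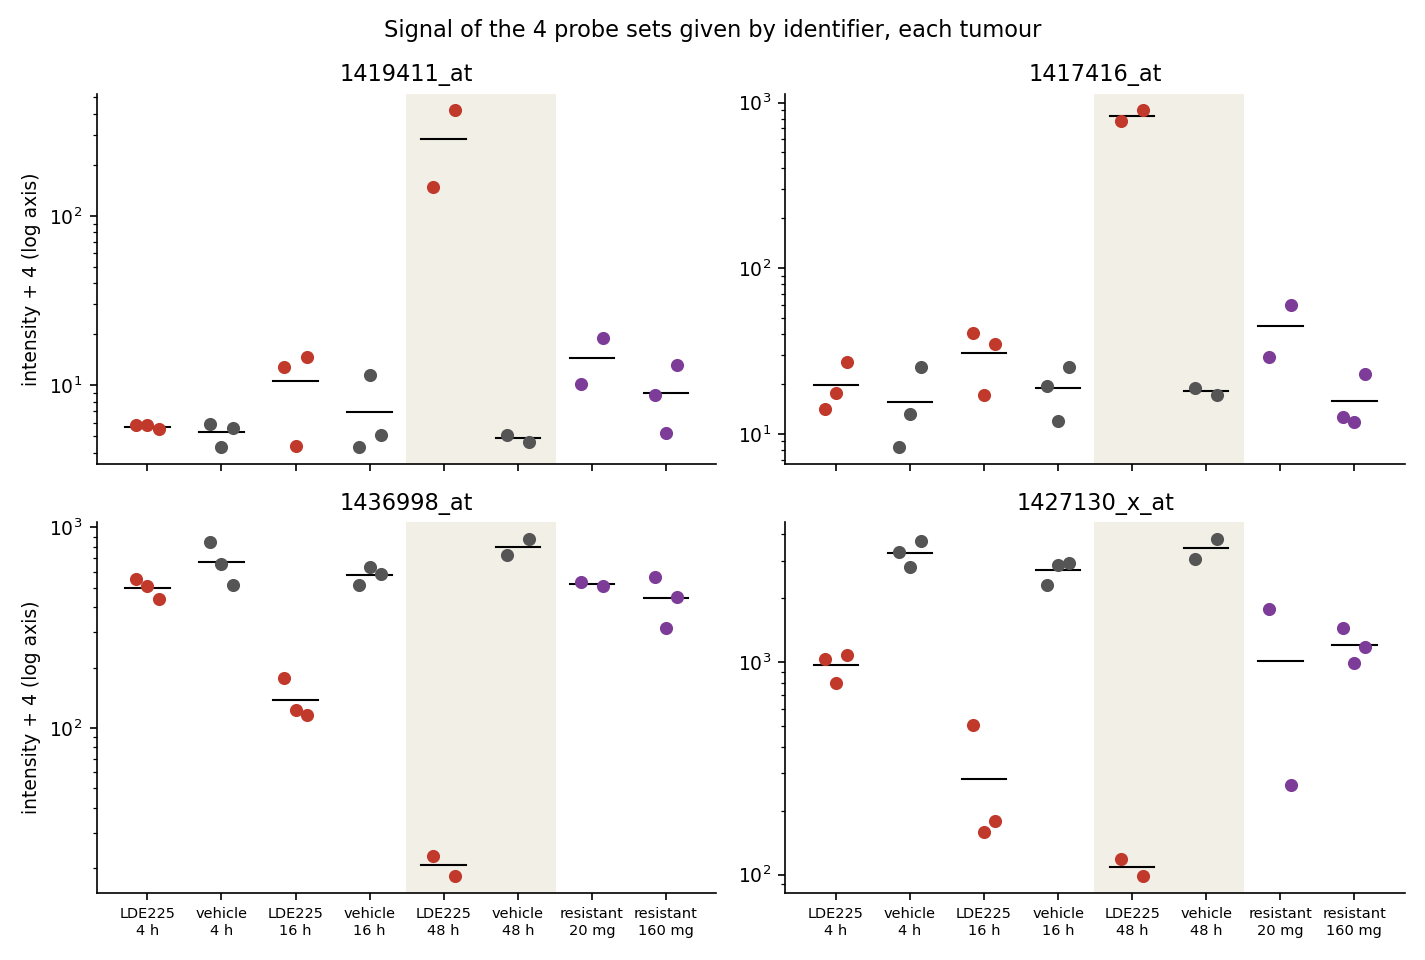
Points are single tumours and lines are group means, with intensity plus 4 on a log axis and groups along the x axis; the 4 arrays of 48 h are shaded. The upper 2 probe sets are high in the LDE225 tumours of 48 h alone, while the lower 2 are lower in LDE225 tumours at 16 h and lowest at 48 h.

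Few probe sets went from an intensity under 20 to one of at least 200. The median intensity of an array was 21.6 to 36.1, so values under 20 were common and do not show that a transcript was absent. Both LDE225 tumours had at least 200 and both vehicle tumours under 20 at 12 probe sets, all of them called, with a median log2 change of 4.44. The same probe sets had a median change of 1.07 at 16 h and 0.06 at 4 h. The reverse pattern, under 20 with LDE225 and at least 200 with vehicle, was found at 2 probe sets. These had medians of -4.99 at 48 h, -1.97 at 16 h and -0.36 at 4 h.

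Values at 16 h and 4 h, which share no array with 48 h, were then read for the probe sets called at 48 h. Calls at the 3 times are not independent, because they use 1 spread estimated over all 21 arrays. At 16 h, 4194 probe sets had changed (9.31%), with 2224 higher (4.94%) and 1970 lower (4.37%). Of the 3673 that rose at 48 h, 780 (21.2%) had also risen at 16 h and 5 (0.136%) had fallen. Of the 3336 that fell at 48 h, 1209 (36.2%) had also fallen at 16 h and 60 (1.8%) had risen. The 60 and the 5 that turned between the times all passed the test of the difference between the effects. Being called in opposite directions at both times nearly fixed that outcome, so it adds no evidence. The 60 had a median log2 change of 0.86 at 16 h and -0.90 at 48 h. At 4 h only 29 probe sets had changed (0.0644%), 27 of them downward (0.06%); 23 of the 27 also fell at 48 h, and 21 fell at all 3 times. Of the 2 that rose at 4 h (0.00444%), 1 rose at 48 h and none at all 3 times.

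The strongest falls of 48 h were those with the clearest early fall, and the strongest rises were at or below the share of all probe sets at 4 h. Among the 36 probe sets that fell 8-fold or more, LDE225 values lay below all vehicle values at 31 (86.1%) at 4 h and at 35 (97.2%) at 16 h, where 5.41% and 12.3% of all probe sets did so. Their median intensity was 264 in LDE225 and 608 in vehicle tumours at 4 h, 118 against 518 at 16 h, and 39.7 against 596 at 48 h. Among falls under 2-fold the shares were 9.1% at 4 h and 48.2% at 16 h. By the test, 7 of the 36 (19.4%) were called lower at 4 h and 32 (88.9%) at 16 h. Of all probe sets, 0.06% and 4.37% were. Among the 275 probe sets that rose 8-fold or more, LDE225 values lay above all vehicle values at 10 (3.64%) at 4 h and at 81 (29.5%) at 16 h, against 7.05% and 16.4% of all probe sets. Their median intensity was 15.5 in LDE225 and 14.4 in vehicle tumours at 4 h, 31.7 against 16.2 at 16 h, and 242 against 20.6 at 48 h. Rises under 2-fold, whose signal was brighter, had 63.3% at 16 h. These shares are descriptions. The classes hold called probe sets alone, and calling used a spread that includes the arrays of 4 h and 16 h. Such a choice can favour arms that do not overlap at those times, relative to all probe sets. The classes also differ in signal level, whose part in the shares was not tested.

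**Figure D4:**
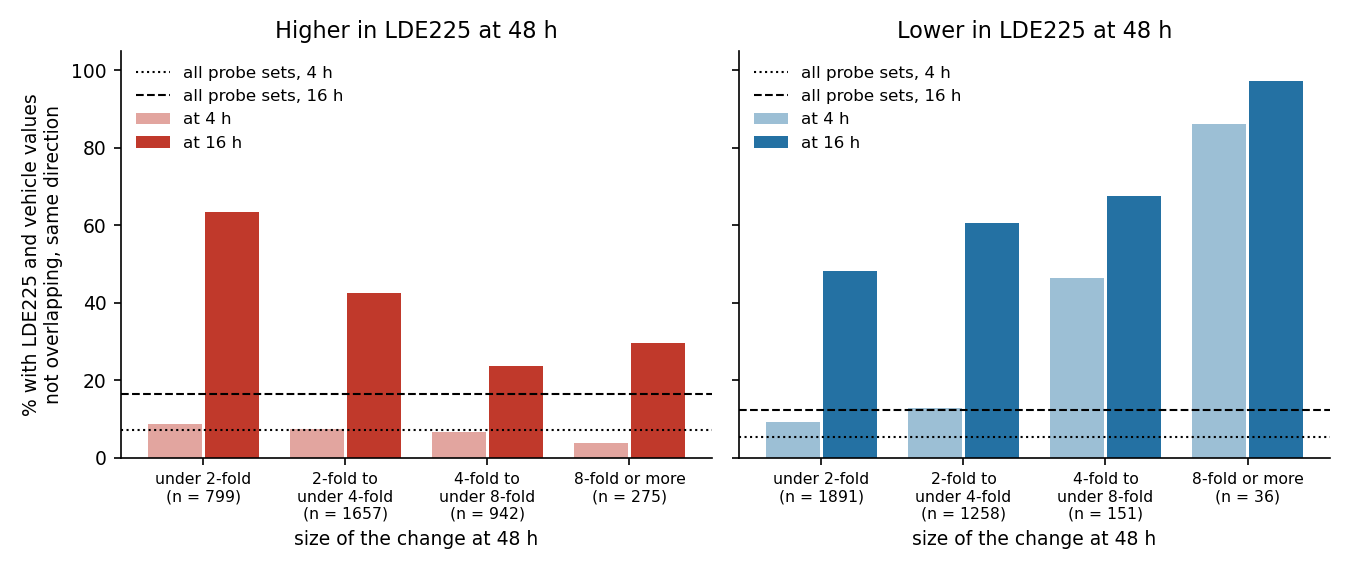
Bars give the percent of probe sets called at 48 h whose LDE225 and vehicle values did not overlap, in the same direction, at 4 h (pale) and 16 h (dark), by the size of the change at 48 h; lines give the percent of all probe sets. For falls the bars climb with size, to 86.1% at 4 h and 97.2% at 16 h, while for rises those at 4 h stay between 3.64% and 8.76%.

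Whether the effect itself grew was tested by the difference between times. It differed between 48 h and 16 h at 1346 probe sets (2.99%), and the log2 change at 48 h was the higher of both at 547 (1.21%) and the lower at 799 (1.77%). Against 4 h it differed at 3675 (8.16%), higher at 1780 (3.95%) and lower at 1895 (4.21%). Of the 2888 probe sets that were called higher at 48 h and not called at 16 h, 439 passed the test of the difference, and of the 2067 called lower at 48 h and not at 16 h, 499 did. For the others, a difference between the times was not shown. Conversely, 1384 probe sets were called higher at 16 h and not at 48 h, of which 159 had an effect that was lower at 48 h by that test. The count of 1346 became 229 when vehicle tumour 3 of 48 h was left out, 517 when LDE225 tumour 1 was, and 397 when LDE225 tumour 2 was. The count of 3675 became 1267, 2265 and 1840 in the same 3 fits.

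The 2 LDE225 tumours of 48 h were also set against all other arrays. At 2633 of the 3673 probe sets called higher (71.7%), both lay above each of the other 19 arrays, which was so at 9.93% of all probe sets. At 2032 of the 3336 called lower (60.9%), both lay below each of the other 19, against 6.63% of all. These probe sets had been called for a difference between these 2 arrays and the vehicle arrays of 48 h, which raises such shares, so they are given as a description.

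Median levels of the sets were also read by tumour. For the 1217 probe sets that rose 4-fold or more, the median log2 difference from the 6 earlier vehicle tumours (4 h and 16 h, averaged) was 2.74 and 2.74 in the LDE225 tumours of 48 h, against 0.56 in vehicle tumour 1 and -0.33 in vehicle tumour 3. It was -0.01, 0.04 and -0.05 in LDE225 tumours at 4 h and 0.55, 0.82 and 0.57 at 16 h. For the 187 that fell 4-fold or more it was -2.43 and -2.35 in the LDE225 tumours of 48 h, against 0.01 and 0.26 in the vehicle tumours. It was -0.42, -0.50 and -0.41 at 4 h and -1.10, -1.31 and -1.36 at 16 h. The 48 h values chose these sets and are given as a description. The values of the other times entered that choice only through the spread shared by all groups. Treated tumours lay below their vehicle tumours at 4 h and 16 h in the falling set, and above them at 16 h in the rising set.

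**Figure D5:**
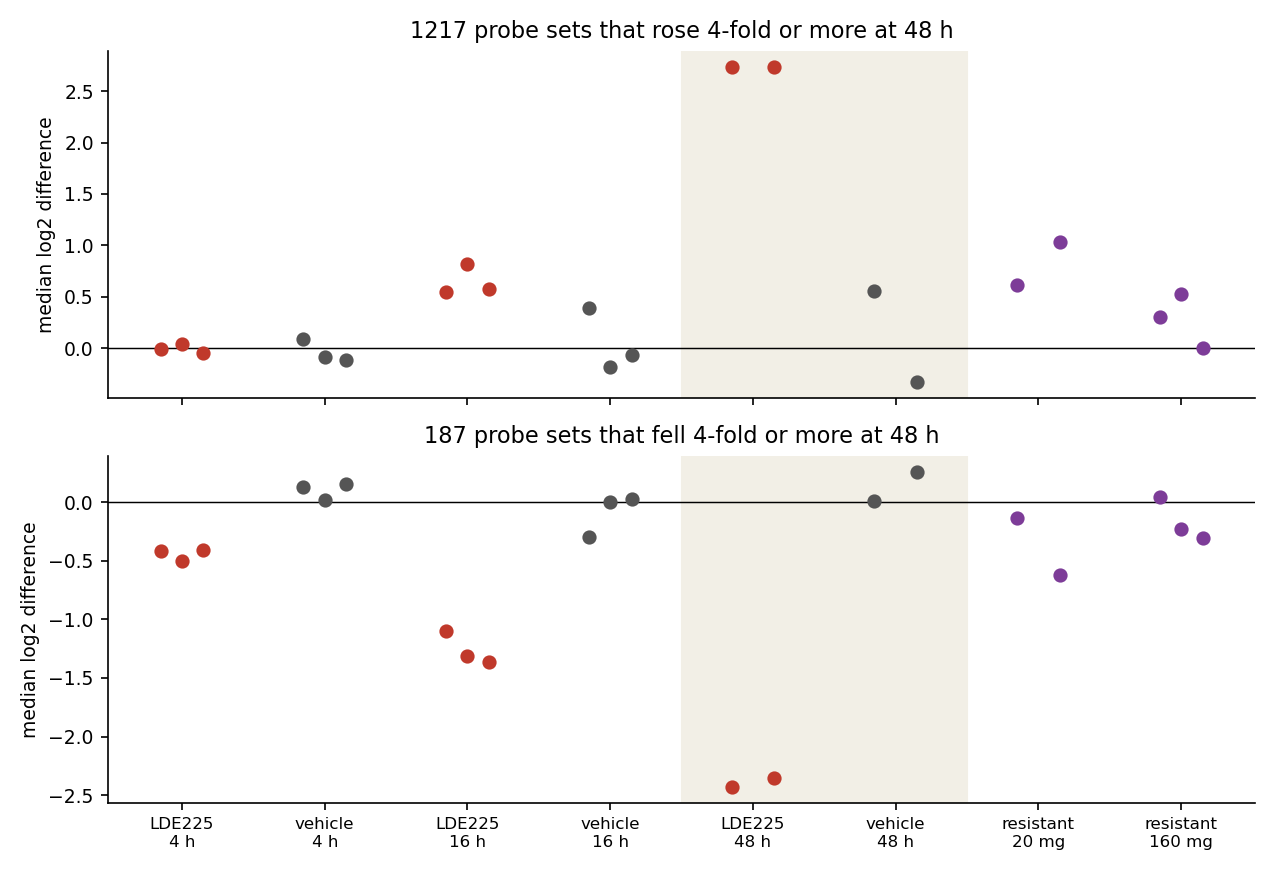
Each point is 1 tumour, and the y axis gives the median log2 difference of a set of probe sets from the mean of the 6 earlier vehicle tumours; the 4 arrays that chose the sets are shaded. The rising set is near 0 at 4 h and reaches 2.74 at 48 h, and the falling set lies below 0 in all LDE225 tumours of the 3 times.

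The reverse choice gave another picture. The 780 probe sets that rose 2-fold or more at 16 h had medians of 1.17 and 1.21 in LDE225 tumours of 48 h, against 0.32 and 0.19 in vehicle tumours. The 816 that fell 2-fold or more at 16 h had -1.24 and -1.31 in LDE225 tumours of 48 h, against -0.28 and -0.12 in vehicle tumours. Both sets separated the arms at 48 h. They were chosen by the difference at 16 h, and arrays of 48 h entered that choice only through the shared spread.

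The 5 resistant tumours were set against the 6 earlier vehicle tumours, so that no array of 48 h entered the difference of means. Arrays of 48 h did enter the spread behind its p-values, so these calls and those of 48 h are not independent. In that comparison 10.4% of all probe sets were called, 6.17% higher and 4.25% lower. Of the 3673 that rose at 48 h, 699 (19.0%) were higher in resistant tumours and 74 (2.01%) lower. Of the 3336 that fell, 621 (18.6%) were lower and 277 (8.3%) higher. For the 1217 largest rises the tumour medians were 0.61 and 1.03 in those dosed with 20 mg/kg/day, and 0.30, 0.53 and 0.00 in those dosed with 160 mg/kg/day, against 2.74 after 48 h. Vehicle tumours of 48 h had 0.56 and -0.33. The 3 tumours of 160 mg/kg/day lay within that range, and the 2 of 20 mg/kg/day lay above it. For the 187 largest falls the resistant tumours had -0.14 and -0.62, and 0.04, -0.23 and -0.31, and these ranges overlapped those of vehicle tumours of 16 h, which reached -0.30. The probe set 1427130_x_at was among those lower in resistant tumours, at 1763.5 and 259.4 with 20 mg/kg/day and 1449.2, 988.3 and 1173.2 with 160 mg/kg/day, by a log2 difference of -1.63 (limma, adjusted p = 0.0037). Duration and dosing schedule differ between the resistant and the 48 h tumours as well. The beta-actin 3′ to 5′ ratio was 1.27 to 1.4 in resistant tumours and 1.6 to 1.87 in the 6 earlier vehicle tumours, without overlap. The part of that difference in the comparison was not tested.

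Some large differences did not pass the test. At 49 probe sets the log2 change at 48 h was 3 or more upward without a call, with a median standard error of 1.54 against 0.59 for called changes of that size. Their median intensity was 685 and 1112 in the LDE225 tumours of 48 h, against 498 in vehicle tumour 1 and 6.7 in vehicle tumour 3. Vehicle tumour 1 of 16 h, at 311, and LDE225 tumour 2 of 16 h, at 439, were also high, while the other 15 tumours had 9.0 to 151. These probe sets varied over all 8 vehicle tumours by a median range of 5.59 on the log2 scale. Their signal was thus low in vehicle tumour 3 of 48 h and high in 1 vehicle tumour and both treated tumours of that time. Whether host tissue in the samples moved with them was not tested.

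The array's own control probe sets carry gene names in their identifiers and were not part of the test. Their values follow as a description. The 3′ probe set of the transferrin receptor, which takes up iron and is abundant in dividing cells, had 32.3 and 41.6 in LDE225 tumours and 86.9 and 134.3 in vehicle tumours at 48 h. At 16 h it had 32.9, 26.3 and 31.8 in LDE225 tumours and 84.2 to 116.3 in vehicle tumours, and at 4 h the arms overlapped, at 55.6 to 68.6 and 43.3 to 112.4. That of pyruvate carboxylase, which makes oxaloacetate from pyruvate in mitochondria, had 139.5 and 337.6 in LDE225 tumours and 527.4 and 545.8 in vehicle tumours at 48 h. At 4 h it had 442.4 to 542.2 in LDE225 tumours and 634.9 to 664.0 in vehicle tumours, which did not overlap. Both were lower in each treated tumour of 48 h and 16 h than in any vehicle tumour of the same time. Beta-actin, a cytoskeletal protein, had 10058.7 and 9519.7 in LDE225 tumours and 7928.5 and 8452.9 in vehicle tumours at 48 h, and the glycolytic enzyme Gapdh had 6052.0 and 5747.4 against 6075.1 and 7149.5.

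Calls were also counted by the ending of the identifier. Probe sets ending in a_at or s_at, whose probes match several transcripts, of 1 gene or of a family, were called at 23.7% and 24.3%, against 14.1% for plain _at probe sets and 14.5% for those ending in x_at. The difference between endings was not tested, and signal level, with which the share called also moves, was not held equal. In a_at probe sets 10.9% were higher and 12.8% lower, and in plain _at probe sets 7.67% were higher and 6.46% lower. Probe sets of 1 gene share its transcript and are not independent, so the counts are not counts of genes.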

How the data were processed

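RNA of 21 tumours was hybridised to 1-colour Affymetrix mouse expression arrays, 1 tumour per array. The authors deposited 1 linear intensity for each probe set and array. MAS5 produced these values according to the submitters' processing notes, and the program's version and scaling target are not given in the sources used here. From these, log2(intensity + 4) was computed without further normalization, so fold changes are on that scale and understate changes of dim probe sets. The 64 control probe sets of the maker were left out, and 45037 were tested with no filter on level. One mean per group was fitted over 8 groups and 21 arrays (13 residual degrees of freedom) by limma 3.58.1 (R 4.3.3), using a trend of variance with level, two-sided tests, Benjamini-Hochberg adjustment over all probe sets and a threshold of 0.05. Summaries used Python 3.11.15, numpy 2.4.6 and pandas 2.3.3.

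The number of arrays limits the precision, and p-values measure the spread between tumours of 1 line. The 48 h comparison borrows the spread of the other groups. The median standard error of a log2 change was 0.41 at 48 h. The fit was tested on simulated data. Arrays were compared pairwise for repeats: none were identical, and Pearson's r was at most 0.9794. Same-numbered mice did not deviate together, so numbers were not used as pairs.

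The design called for genes, lists of pathway and cell type genes, and promoter motifs. With no table linking probe sets to genes, these were not run and probe sets were tested singly. By the rule for that case, the 2 rises and 2 falls with the largest log2 change were named, among called probe sets with arms that do not overlap and a mean of at least 200 in the higher arm. The comparison, its members and the lists were chosen with earlier results of these data known. Other offsets, scalings, a filter, weights, choices of arrays and a replicate block were tried.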

Additional observations from a re-analysis of the deposited data

Results flagged for a closer look

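These results stood out because a direct test found that the effect of LDE225 at 48 h differed from its effect at an earlier time. The difference between 48 h and 16 h passed at 1346 probe sets, and that between 48 h and 4 h at 3675. For 1419411_at the log2 effect at 48 h was greater by 5.12 than at 16 h and by 5.56 than at 4 h, and for 1417416_at by 4.85 and 5.09. For 1436998_at the differences were -3.19 against 16 h and -4.88 against 4 h, and for 1427130_x_at the difference against 4 h was -3.22. These 4 probe sets were picked for extreme changes at 48 h, which favours large differences from other times.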

How the results depend on the processing

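The 4 named probe sets kept their direction and stayed past the threshold at 48 h in all 17 alternatives run. Of their differences between times, that of 1427130_x_at between 48 h and 4 h was -3.06 (limma, adjusted p = 0.056) without vehicle replicate 3. Leaving out each array of 48 h in turn, which leaves 1 tumour in an arm that is assumed to vary like the other groups, gave 2506 to 6355 calls at 48 h, 1185 to 3611 higher, 1321 to 2744 lower, and 1871 to 4877 of 2-fold or more. It gave 229 to 1562 differences between 48 h and 16 h, and 1267 to 3946 between 48 h and 4 h. An offset of 64 gave 1946 calls of 2-fold or more and 2638 differences from 16 h. Median centring gave 1952 higher and 6797 lower, or 22.3% of calls higher, against 52.4% as deposited, 41.8% after quantile normalization and 65.7% after centring on bright probe sets, which was chosen after seeing the data. With the 4 arrays of 48 h alone (2 residual degrees of freedom), 4593 were called, 2328 of them higher. Using all 8 vehicle arrays as controls, which mixes times, gave 12232 calls, 6921 higher and 5311 lower, with 6679 of 2-fold or more. The 16 sensitive arrays gave 2610 differences from 16 h, and 2030 with the replicate block. At 48 h those 16 arrays gave 8618 calls without the block and 7945 with it. The 48 h arms share only mouse number 1, whose tumours' deviations correlated at -0.0694, so these samples share a number and no pairing is known. The cause of these shifts was not tested. At an unadjusted p under 0.05, 12446 probe sets differed at 48 h. Differences of 2-fold or more that were not called numbered 3629, with a median intensity of 11.0 against 77.0 for those called. Of the 49 uncalled changes of 8-fold or more, 24 had a mean of at least 200, and the median standard error of the 49 was 1.54, against 0.59 for called changes of that size. The alternative with 1 probe set per gene was not run for want of a gene table, and differences between times were not recomputed for the 4 arrays alone, without trend, with weights or with all vehicle arrays.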

Other observations

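The control probe set of the transferrin receptor had 122.9 and 158.0 with 20 mg/kg/day and 203.3 to 314.4 with 160 mg/kg/day, against 43.3 to 112.4, 84.2 to 116.3 and 86.9 to 134.3 in vehicle tumours of 4 h, 16 h and 48 h. The lower of the 20 mg/kg/day tumours lay within the vehicle range of 48 h, and the 3 tumours of 160 mg/kg/day lay above all vehicle tumours. That of pyruvate carboxylase had 262.0 and 435.0 with 20 mg/kg/day and 284.3 to 468.3 with 160 mg/kg/day, against 634.9 to 664.0, 457.7 to 636.1 and 527.4 to 545.8 in vehicle tumours of 4 h, 16 h and 48 h. The ranges at 160 mg/kg/day and in vehicle tumours of 16 h overlap. No test was made on control probe sets.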
